A study of Mus musculus with 8 samples.

Results

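The 2 mature arms of the miR-9 hairpin, miR-9 (the 5p arm) and miR-9* (the 3p arm), were followed in mouse dendritic cells grown from bone marrow. They were taken by their names in the array files, mmu-miR-9 and mmu-miR-9*, and are 2 of the 567 mouse miRNAs on the array. Marrow cells of C57BL/6 mice were cultured with the growth factor GM-CSF at 40 ng/ml, and non-adherent cells were collected on day 9 and plated overnight. Of 8 samples, 4 stayed untreated and 4 received 10 µM of ODN1826, a class B CpG oligonucleotide, which is a short DNA sensed by the receptor TLR9. The labels give the control as medium alone in one place and as PBS in another, and no sample had a control oligonucleotide. Neither separate animals nor separate cultures are stated for the replicates, so that a p-value here weighs a difference against the spread of these samples alone, and that spread may be technical. Each sample was hybridised in 1 colour (Cy3) to 1 of the 8 arrays of 1 slide.

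miRNAs are cut from hairpin transcripts as a duplex of 2 arms, and an arm loaded into an Argonaute protein guides it to mRNAs that match bases 2 to 8 of the arm, its seed. The star in miR-9* is an older name for the arm first thought to be the minor one. miR-9 is best known from the developing brain, where both arms act on neural transcription regulators. In human monocytes and neutrophils it is induced by Toll-like receptor ligands through MyD88 and NF-κB, and it targets the transcript of the NF-κB subunit NFKB1. TLR9, the receptor for CpG DNA, also signals through MyD88. The comparison therefore asks whether either arm differs between untreated and CpG-exposed cells.

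The mature sequences below, from RefSeq (GRCm38.p6), show what the array probes were made to detect, with the seed in capitals. miR-9b, which the RefSeq table places on the opposite strand of the same hairpins, is shown because it is the closest relative of both arms by shared letters.
miR-9 (5p arm): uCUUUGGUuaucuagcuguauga
miR-9* (3p arm): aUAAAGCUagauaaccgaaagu
miR-9b-5p: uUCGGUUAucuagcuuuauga
miR-9b-3p: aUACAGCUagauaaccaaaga
None of the other 1677 mature miRNA names in that table had the seed of miR-9, and none had the seed of miR-9*. The longest run of letters that another mature miRNA shared with an arm was 12 bases, in miR-9b-5p for miR-9 and in miR-9b-3p for miR-9*. Within the duplex, bases 6 to 17 of miR-9 are the exact complement of a stretch of 12 bases in miR-9*. miR-9b has no probe on this array, and whether its RNA binds the probes of the arms was not tested.

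Both arms are the same in all 3 miR-9 hairpins of the mouse genome, which are shown with the arms in capitals because the array cannot tell the genes apart.
Mir9-1: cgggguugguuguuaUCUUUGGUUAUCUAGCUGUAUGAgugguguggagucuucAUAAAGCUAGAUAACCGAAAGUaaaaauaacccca
Mir9-2: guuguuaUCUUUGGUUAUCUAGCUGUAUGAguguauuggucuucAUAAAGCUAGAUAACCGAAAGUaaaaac
Mir9-3: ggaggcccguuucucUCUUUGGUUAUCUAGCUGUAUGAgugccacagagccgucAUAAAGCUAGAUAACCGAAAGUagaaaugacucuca
The loop between the arms is 16 bases long in Mir9-1 and Mir9-3 and 14 in Mir9-2. Mir9-1 lies at chr3:88215598-88215686, Mir9-2 at chr13:83738814-83738885 and Mir9-3 at chr7:79505264-79505353, all on the plus strand of GRCm38.p6. Each lies within the span of a long non-coding RNA gene, Gm3764 for Mir9-1, C130071C03Rik for Mir9-2 and Mir9-3hg for Mir9-3. Whether these positions are exonic or intronic was not analysed here. The array's own annotation, in the older build mm9, names only the chromosome 13 copy. It gives target spans of 19 and 18 bases for the probes of miR-9 (chr13:83878430-83878448 and chr13:83878431-83878448) and of miR-9* (chr13:83878466-83878484 and chr13:83878467-83878484).

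miRNAs known from myeloid and other blood cells were present in these samples. All 5 listed ones, miR-142-3p, miR-142-5p, miR-223, miR-146a and miR-155, were detected on all 8 arrays. With CpG 2 of them were called higher (limma adjusted p under 0.05), miR-155 and miR-146a, where 7.55% of all tested miRNAs were. Both are also in the Toll-like receptor list below, chosen with earlier results known. The call of miR-146a was lost in 6 of 8 fits that each left out 1 array. Called lower was 1, miR-223, an abundant myeloid miRNA (log2 difference -0.60, limma adjusted p = 0.0284), where 6.6% of all tested miRNAs were. Without scaling between arrays 0 miRNAs were called lower and 88 higher, so that miR-223 was not called lower there. Members of the erythroid, megakaryocyte and endothelial, stromal and liver lists were not detected on any array. Detection on at least 1 array was found for 2 of 3 lymphoid, 3 of 4 epithelial and 1 of 3 muscle miRNAs. No miRNA is specific to dendritic cells, and mRNA or surface markers were not analysed here. Unscaled, the array's 75th percentile lay between 101 and 144 intensity units for untreated and between 157 and 280.5 for CpG samples. It was taken over the 177 mouse miRNAs with detection on all 8 arrays, and signals were divided by it, so that 0 on the log2 scale is that percentile.

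Both arms were present in untreated and in CpG-exposed cells, below the 75th percentile of the array, and neither differed between the groups by more than the spread between arrays. The detection flag of Feature Extraction, the scanner software, was set for both arms on 8 of 8 arrays. miR-9 read -1.83, -2.68, -1.98 and -3.20 on the log2 scale in untreated replicates 1 to 4 and -1.80, -2.84, -2.13 and -3.07 in CpG replicates 1 to 4. In both groups replicates 1 and 3 were high and replicates 2 and 4 low, and the groups overlapped throughout. The means were -2.42 ± 0.64 and -2.46 ± 0.59 (SD, n = 4 each). The difference was -0.04 (SE 0.36, limma adjusted p = 0.94), a 0.974-fold signal with a 95% interval from 0.554-fold to 1.71-fold.

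miR-9* followed the same order. It read -1.52, -2.32, -1.93 and -2.76 in untreated replicates 1 to 4 and -1.78, -2.59, -2.13 and -2.64 in CpG replicates 1 to 4. As for miR-9, replicates 1 and 3 lay above replicates 2 and 4 in both groups, and the groups overlapped. Its mean went from -2.13 ± 0.53 to -2.29 ± 0.41 (SD, n = 4 each). The difference was -0.15 (SE 0.29, limma adjusted p = 0.72), a 0.900-fold signal with a 95% interval from 0.574-fold to 1.41-fold. Both intervals leave room for changes in either direction, so that these values do not show that the arms were equal in the groups. In bulk RNA, fewer cells with a miRNA and less of it per cell cannot be told apart.

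**Figure D1:**
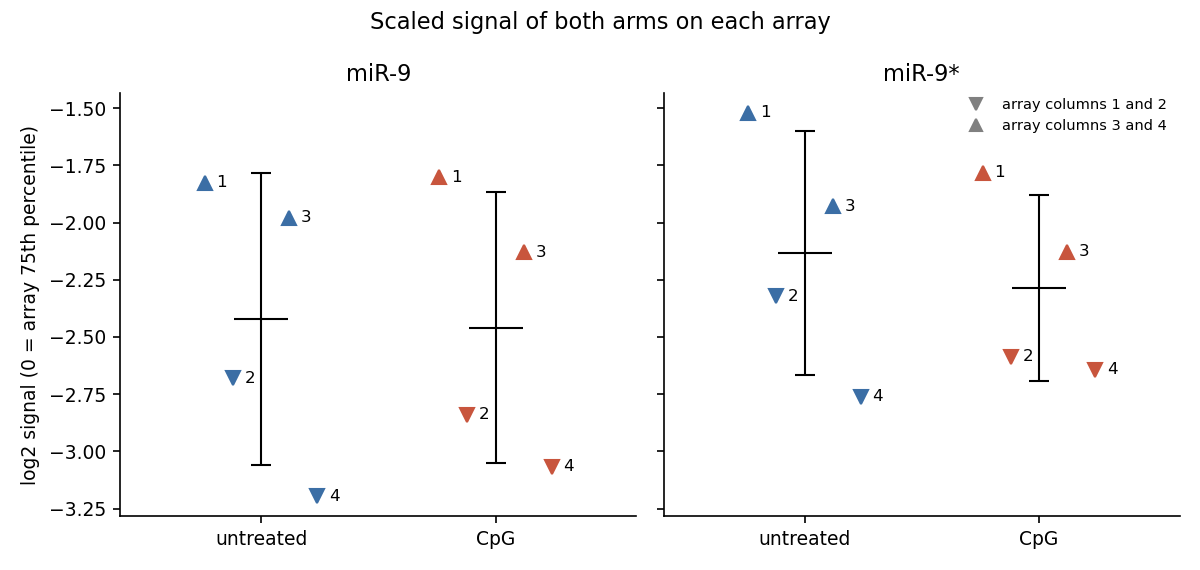
Log2 signal of miR-9 (left) and miR-9* (right) on each array, scaled so that 0 is the array's 75th percentile, with the replicate number beside each point. Horizontal lines and bars are group means and SD (n = 4 each). In both panels and both groups replicates 1 and 3 (upward triangles) lie above replicates 2 and 4 (downward triangles); the triangles stand for the columns of the slide as read from the array names.

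Of the 2 arms, 0 passed the threshold (an adjusted p under 0.05), and 0 had an unadjusted p under 0.05. In the same limma fit 14.2% of the 212 tested miRNAs passed, 16 higher (7.55%) and 14 lower (6.6%) with CpG. Before adjustment, 40.1% of the tested miRNAs were at a p under 0.05. The count of 30 miRNAs past the threshold ranged from 5, without untreated replicate 2 or without CpG replicate 3, to 68, without CpG replicate 1, and an arm passed in none of the 8 fits that left out 1 array. The groups did not overlap for 0 of the 2 arms and for 26.9% of all tested miRNAs. The median difference of all tested miRNAs was -0.19, so that miR-9 and miR-9* lay near the bulk of the array.

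In the list of miRNAs known to respond to Toll-like receptor ligands, the arms of miR-9 stood among the members without a call. Detection allowed a test of 11 of its 12 members, of which 4 rose and 0 fell, where 7.55% of all tested miRNAs rose. The list had been chosen with earlier results of these data known, so that this count is no independent support. The median difference of its tested members was -0.04, the value of miR-9 itself, against -0.19 for all. The members that rose included miR-155 (log2 difference 1.92, limma adjusted p = 0.00096) and miR-222 (1.14, limma adjusted p = 0.0111). The others were miR-147 (0.97, limma adjusted p = 0.0227) and miR-146a (0.92, limma adjusted p = 0.0355). miR-155 is induced in activated myeloid cells, miR-147 is a macrophage miRNA induced by Toll-like receptors, and miR-146a targets IRAK1 and TRAF6. miR-147 was at 0.83 without untreated replicate 2 and at 0.97 without CpG replicate 3, where it missed the threshold (limma adjusted p = 0.0731 and 0.0669). It was at 0.02 with normexp background, another background correction (limma adjusted p = 0.91), and also missed the threshold with medians over spots and probes (1.06, limma adjusted p = 0.0515) and with no filter on detection (0.97, limma adjusted p = 0.0933). The call of miR-146a was lost in 6 of the 8 fits that left out 1 array, all but those without untreated replicate 3 or without CpG replicate 1. Its differences were between 0.79 and 1.07 in the 8 fits (limma adjusted p up to 0.102). It also missed the threshold when scaled on the median (0.91, limma adjusted p = 0.0568) and with no filter on detection (0.92, limma adjusted p = 0.14). With no filter on detection miR-222 missed it as well (1.14, limma adjusted p = 0.0751). miR-187, the member not tested, was not detected on any array. Whether miR-9 differs in its response from these 4 members was not tested.

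Since miR-9 is also a brain miRNA, miRNAs of neural cells were read beside it. Of 10 listed ones, miR-128 and miR-219 were detected on all 8 arrays, miR-129-3p on 2 CpG arrays and miR-129-5p on 1, and the other 6 on none. miR-124, the most abundant miRNA of neurons, was among those not detected, with a highest signal of 0.162 intensity units. The summed signal of the list was 0.164 to 0.184 times the 75th percentile on the untreated arrays and 0.155 to 0.196 times on the CpG arrays. Neither of the 2 tested members passed (limma adjusted p = 0.37 for miR-128 and 0.14 for miR-219), where 14.2% of all tested miRNAs did. Their median difference was -0.29, against -0.19 for all tested miRNAs.

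The signal of both arms was modest, and the probes and spots behind it could be followed one by one. Each arm has 2 probes with 10 spots per probe on every array. Over the 8 arrays, 149 of 160 spots of miR-9 and 159 of 160 of miR-9* were well above background, and 0 were saturated. The processed intensity of miR-9 was 28.5, 19.4, 36.5 and 13.1 in untreated replicates 1 to 4 and 44.9, 35.2, 41.2 and 33.5 in CpG replicates 1 to 4. Untreated replicate 3 thus exceeded CpG replicates 2 and 4. That of miR-9* was 35.3, 24.9, 37.8 and 17.7 untreated and 45.6, 42.0, 41.2 and 44.9 with CpG, where the groups did not overlap before scaling. That was the case for 39.6% of the tested miRNAs without scaling, on arrays whose 75th percentile did not overlap between the groups either. The unscaled log2 differences of 0.76 for miR-9 and 0.65 for miR-9* stood beside a median of 0.60 over all tested miRNAs.

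The dimmest reading was that of the miR-9 probe with 18 target bases on untreated replicate 4, at 5.11 intensity units, where 0 of 10 spots were well above background. The other miR-9 probe read 21.1 there, with 10 of 10. On that array the 99th percentile of the 672 negative control spots was 8.68. The mean of miR-9 over both probes exceeded that percentile 1.51-fold there, and between 2.26-fold and 9.13-fold on the other 7 arrays. miR-9* was 2.04-fold to 9.26-fold above it. The miR-9 call of detection on untreated replicate 4 thus rested on the probe with 19 target bases.

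**Figure D2:**
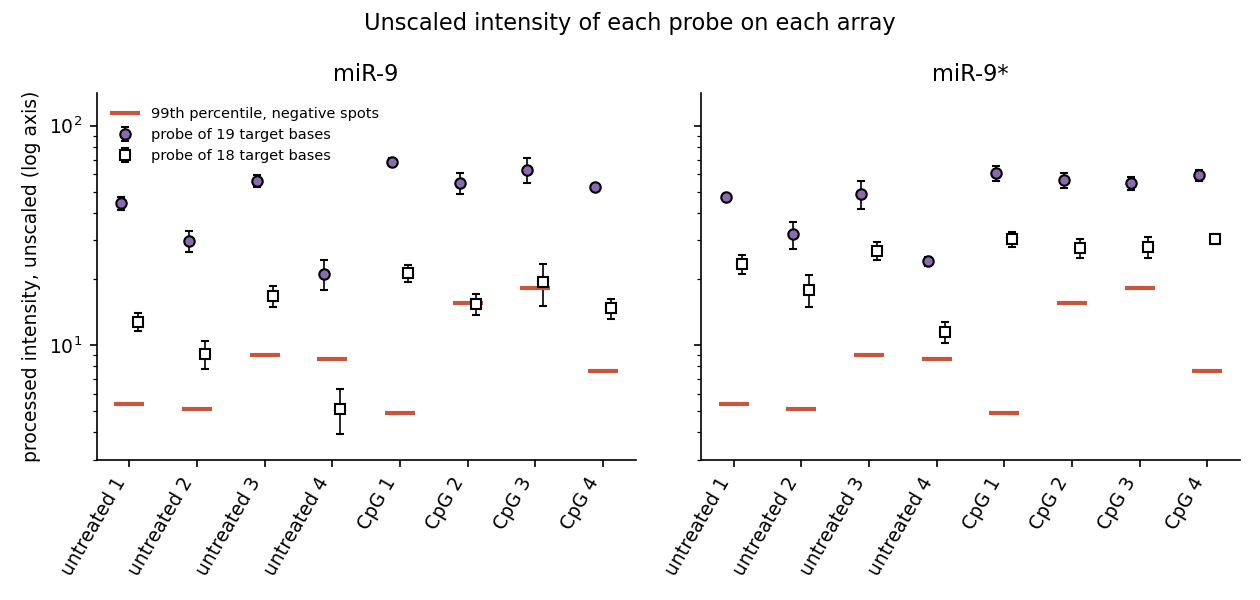
Unscaled processed intensity (log axis) of each probe on each array, as the mean ± SD over the spots without outlier flags, for the probes with 19 (filled circles) and 18 (open squares) target bases. Red dashes mark the 99th percentile of the 672 negative control spots, above which all probe means lie except those of the 18-base miR-9 probe on untreated replicate 4 (5.11 units) and CpG replicate 2 (15.4 units).

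The probes of an arm gave small differences between the groups. The scaled log2 difference was -0.05 and 0.01 for the miR-9 probes with 19 and 18 target bases, and -0.14 and -0.18 for those of miR-9*. The groups overlapped for all 4 probes. The SD within groups was 0.58 to 0.72 for the miR-9 probes. No direction is read from the miR-9 probe with 18 target bases, which was not above the 99th percentile of the negative control spots on untreated replicate 4 and CpG replicate 2.

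The spread between arrays was wider for miR-9 than for most miRNAs. The SD within groups was 0.62 for miR-9 and 0.47 for miR-9*, against a median of 0.30 over the tested miRNAs. Of the 212 tested miRNAs 198 had a smaller SD than miR-9 and 163 a smaller one than miR-9*. The error that Feature Extraction gives for the total gene signal of an array corresponds to 0.12 to 0.18 on the log2 scale for miR-9 and to 0.11 to 0.14 for miR-9*. That error covers the measurement on 1 array and not the spread between samples.

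In both groups replicates 1 and 3 were set apart from replicates 2 and 4. The array names end in 2 numbers, which neither the labels nor the file headers explain. Read as row and column on the slide, they place replicates 1 and 3 of both groups in columns 3 and 4 and replicates 2 and 4 in columns 1 and 2. These are called slide sides under that reading. miR-9 was at -1.93 ± 0.15 in columns 3 and 4 and at -2.95 ± 0.23 in columns 1 and 2 (SD, n = 4 each, with 2 arrays of each treatment). miR-9* was at -1.84 ± 0.26 and -2.58 ± 0.19. Neither arm overlapped between the slide sides, which differed by 1.01 for miR-9 and 0.74 for miR-9*. This split was looked at after the values had been seen, and it has no test here.

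Few other miRNAs were separated in this way. The slide sides did not overlap for 10 of the 212 tested miRNAs (4.72%), and for 9 of them (4.25%), both arms of miR-9 included, columns 3 and 4 were above. Only 1 tested miRNA had a larger mean shift towards columns 3 and 4 than miR-9, and 5 had a larger one than miR-9*. The median shift of all tested miRNAs was 0.11. The 75th percentile overlapped between the sides, as did the bright control features hur_1, hur_2, hur_4 and hur_6. Slide side and replicate number cannot be told apart for this pattern, since each side holds the same 2 replicate numbers of both groups.

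**Figure D3:**
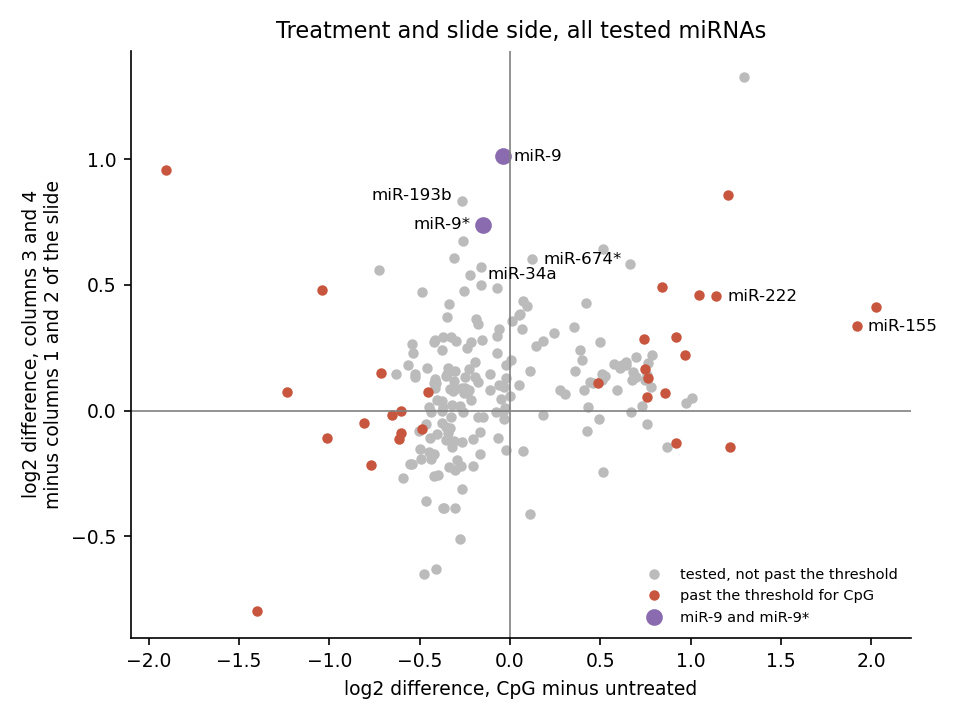
For each of the 212 tested miRNAs, the log2 difference between CpG and untreated arrays (horizontal axis) and that between arrays in columns 3 and 4 and arrays in columns 1 and 2 of the slide (vertical axis). miR-9 and miR-9* (purple) lie near 0 on the first axis, at -0.04 and -0.15, and high on the second, at 1.01 and 0.74; miR-155 lies at 1.92 on the first.

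Within a slide side the difference between CpG and untreated arrays was small as well. For miR-9 it was -0.01 in columns 1 and 2 and -0.06 in columns 3 and 4 (2 arrays against 2 in each). For miR-9* it was -0.07 and -0.23. With the slide side as a block, the SE fell from 0.36 to 0.16 for miR-9 (limma adjusted p = 0.86) and from 0.29 to 0.17 for miR-9* (limma adjusted p = 0.47). The 95% interval then ran from 0.754-fold to 1.26-fold for miR-9 and from 0.691-fold to 1.17-fold for miR-9*. This block was added after seeing the data, because the arms were separated by it, so that its smaller SE is no independent gain in precision.

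The arms rose and fell together from array to array. Over the 8 arrays their scaled log2 signals had a Pearson r of 0.97 (exact permutation p = 0.000174) and a Spearman rho of 0.98 (exact permutation p = 0.000397), two-sided, and this was the only relation tested. Both arms share the array and its scaling. Without scaling between arrays r was 0.97 (exact permutation p = 0.00146) and rho was 0.79 (exact permutation p = 0.0279). Without untreated replicate 4 and CpG replicate 4, the arrays farthest from the median of miR-9, r was 0.94 (exact permutation p = 0.00278, n = 6). For deviations from the slide-side means, an alternative added after seeing the data, r was 0.85 (permutation p = 0.00672). That p is approximate and not exact, since deviations tied to the mean of their own side were shuffled across both sides. No r is given for the 4 arrays of a side alone.

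The difference between the arms on 1 array does not depend on scaling by a single factor per array, since the factor cancels. Quantile normalization and cyclic loess, also tried for the arms, use no such factor. The arm difference was not computed under them. The log2 signal of miR-9 minus that of miR-9* was -0.31, -0.36, -0.05 and -0.44 in untreated replicates 1 to 4, and -0.02, -0.25, -0.001 and -0.42 in CpG replicates 1 to 4. Averaged over both probes, miR-9* thus gave at least as much signal as miR-9 on every array. With the probes of 19 target bases alone, miR-9 exceeded miR-9* on untreated replicate 3 (56.1 against 48.7 intensity units). It also did so on CpG replicate 1 (68.6 against 60.7) and CpG replicate 3 (63.0 against 54.5), and was lower on the other arrays. Probes differ in response, so that a signal ratio is not a ratio of molecules. As ratios of the signals averaged over both probes, miR-9 was 0.740 to 0.966 times miR-9* in untreated and 0.746 to 0.999 times in CpG samples. The mean difference was -0.29 ± 0.17 untreated and -0.17 ± 0.20 with CpG (SD, n = 4 each). The change of 0.11 was smaller than the SD within groups of 0.18 (exact two-sided permutation p = 0.37 over 70 arrangements, of which the smallest possible p is 0.0286).

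**Figure D4:**
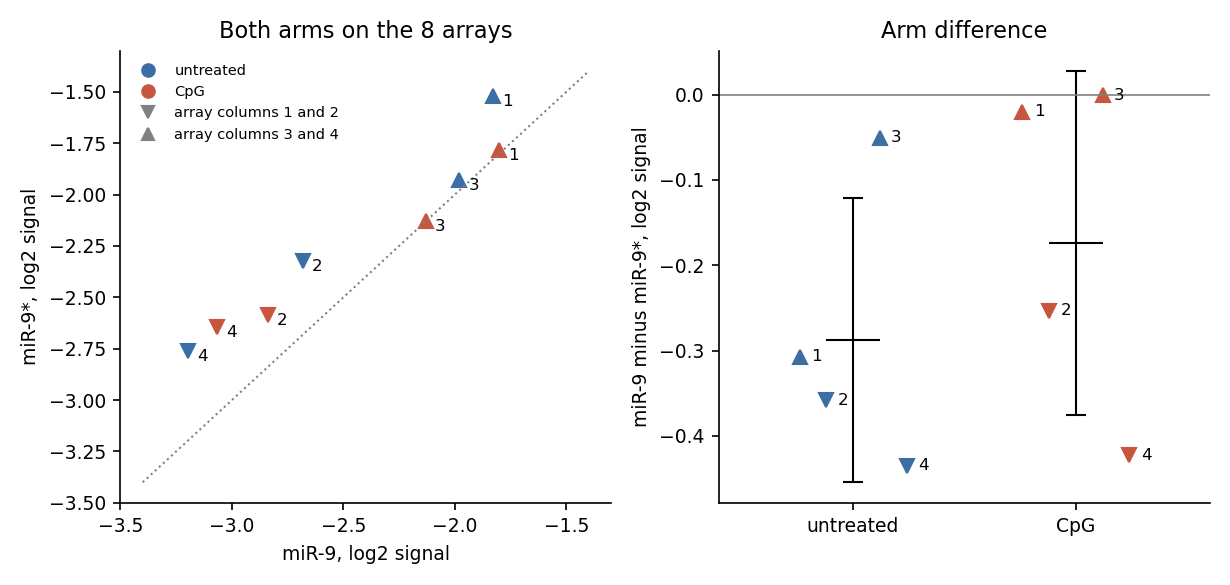
Left, scaled log2 signal of miR-9* against that of miR-9 on the 8 arrays, with the dotted line where both are equal and the replicate number beside each point. Right, the log2 signal of miR-9 minus that of miR-9* per array, with group means and SD (n = 4 each); the groups overlap, at -0.29 ± 0.17 untreated and -0.17 ± 0.20 with CpG.

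The miRNAs whose pattern over the 8 arrays was most like that of the arms were nearly the same for both. They were ranked by Pearson's r among the 175 other miRNAs detected on all arrays, as a description over arrays that share the slide and the scaling. For miR-9 the 4 with the highest r were miR-34a (0.92), miR-193b (0.92), miR-674* (0.90) and miR-29a (0.84). For miR-9* they were miR-193b (0.99), miR-34a (0.97), miR-674* (0.91) and miR-151-5p (0.89). miR-193b had the order of miR-9* over all 8 arrays, from -2.76 in untreated replicate 1 to -4.20 in untreated replicate 4. None of these 5 miRNAs was called different with CpG (limma adjusted p between 0.48 and 0.84), where 14.2% of all tested miRNAs were called. All but miR-151-5p separated the slide sides, as 4.72% of all tested miRNAs did. Neither count is independent of the ranking, since the arms themselves separated the sides and were not called. Under 3 other scalings 3 or 4 of the 4 names remained for each arm.

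The direction of the difference in the arms depended on how the arrays were scaled, while none of the scalings tried gave a call. Scaled on 4 bright control features, miR-9 was at 0.51 and miR-9* at 0.40 (limma adjusted p = 0.26 and 0.25), where the median of all tested miRNAs was 0.35. Without scaling they were at 0.76 and 0.65 (limma adjusted p = 0.064 and 0.062), where 41.5% of the tested miRNAs were called higher and the median was 0.60. The 95% intervals then reached up to 2.70-fold for miR-9 and 2.32-fold for miR-9*. Each arm thus lay above the median of all tested miRNAs in both settings. With normexp background, miR-9* was called lower (-0.35, limma adjusted p = 0.0399) and miR-9 was at -0.34 without a call (limma adjusted p = 0.060), where 138 miRNAs were called, 132 of them lower. The amount of miRNA per cell was not measured, so that these arrays do not settle which scaling is right.

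**Figure D5:**
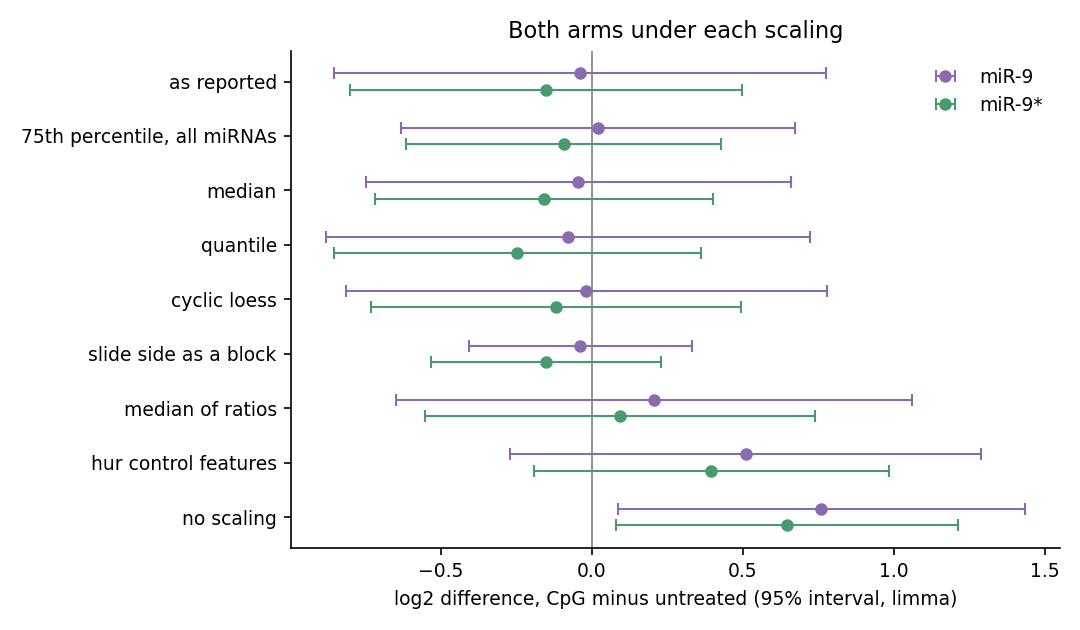
Log2 difference between CpG and untreated arrays for miR-9 and miR-9*, with 95% intervals from limma, under each scaling and with the slide side as a block. In the settings shown, estimates run from -0.08 to 0.76 for miR-9 and from -0.25 to 0.65 for miR-9*. Of these settings, only without scaling do the intervals, which are not adjusted for the 212 tests, leave out 0. Not shown are the authors' deposited series table, also unscaled, and normexp background, where the intervals left out 0 too. With normexp background they ran from -0.66 to -0.02 for miR-9 and from -0.66 to -0.05 for miR-9*.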

How the data were processed

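Each array came with the scanner output of Agilent Feature Extraction (version 9.5.3.1, per the file headers), which the authors deposited. Its processed signal is an intensity from which background has been subtracted and a spatial trend removed, and arrays were not scaled to each other. A summary per miRNA gives the total gene signal, also an intensity, with a detection flag. The authors' deposited series table of 260 miRNAs held the same intensities, with 2080 of 2080 values counted as equal within 0.1%. A value at that table's floor was counted as equal where the total gene signal was at or below the floor. The submitters' processing notes name limma, with no account of its use.

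Spots without outlier flags were averaged per probe and then per miRNA. These means were scaled to the 75th percentile of the 177 mouse miRNAs with detection on 8 of 8 arrays, raised to a floor of 0.0107 (-6.55 on the log2 scale) where lower, and put on a log2 scale. Detection on at least 3 arrays of a group was required for a test, which left 212 of 567 miRNAs. The test was limma's (version 3.58.1, R 4.3.3; lmFit, eBayes, two-sided, Benjamini-Hochberg over the 212, threshold 0.05), tested on simulated data first. Single values per array were compared by exact permutation. The number of arrays limits the precision. Figures were drawn with matplotlib 3.10.9 under Python 3.11.15. Alternatives covered scaling, background, floor, filter, blocks and leaving out each array.

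The members, lists and alternatives were chosen with earlier results of these data known. Named miRNAs were both arms, the called members of the Toll-like receptor list, detected neural miRNAs, and the 4 miRNAs of highest correlation with each arm. The marker lists included lymphoid (2 of 3 members detected), epithelial (3 of 4) and muscle miRNAs (1 of 3). Of their tested members, 2 lymphoid, 3 epithelial and 1 muscle, 0 were called, where 14.2% of all tested miRNAs were. Sequences are from RefSeq tables of GRCm38.p6. Probe letters were not used here.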

Additional observations from a re-analysis of the deposited data

How the results depend on the processing

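The block for the side of the slide was chosen after seeing the data. miR-9 changed sign, without passing, with no scaling (0.76), in the authors' deposited series table (0.76), on the control features (0.51), with median of ratios (0.21) and with the 75th percentile of every mouse miRNA (0.020). miR-9* did so in the first 4 of these, at 0.65, 0.65, 0.40 and 0.092, and passed with normexp background (-0.35, limma adjusted p = 0.0399), where 138 miRNAs passed (6 higher, 132 lower) and miR-9 was at -0.34 without a call. Leaving out 1 array gave -0.30 to 0.16 for miR-9, positive without untreated replicate 1 (0.16), untreated replicate 3 (0.11), CpG replicate 2 (0.09) or CpG replicate 4 (0.16), and -0.36 to 0.052 for miR-9*, positive without untreated replicate 1 (0.052). None of these fits called an arm. The number of miRNAs past the threshold, 30 as reported, was 88 without scaling (88 higher, 0 lower), 93 (93 higher, 0 lower) in the authors' deposited series table, 69 on the control features (67 higher, 2 lower), 18 with the median, 19 with quantile normalization, 22 with median of ratios (17 higher, 5 lower), 23 with the 75th percentile of every mouse miRNA (16 higher, 7 lower), 48 with a floor 2 times higher and 3 with no filter on detection, and 5 to 68 when 1 array was left out (12, 5 and 17 without untreated replicates 1, 2 and 4, and 68, 11 and 5 without CpG replicates 1, 2 and 3). The arm difference kept its sign and missed the threshold in all 16 alternatives computed for it (0.01 to 0.20), quantile normalization and cyclic loess not among them. Among the 16, the replicate block could not pass, its p of 0.125 being the smallest that 4 pairs allow. The same-numbered changes were 0.29, 0.10, 0.05 and 0.01. The correlation of the arms passed in all 8 alternatives (r 0.85 to 0.98), where the p for deviations from group or slide-side means is approximate. With the replicate number as a block, miR-9 was at -0.04 (SE 0.12, limma adjusted p = 0.80), miR-9* at -0.15 (SE 0.12, limma adjusted p = 0.34) and 38 miRNAs passed. Over all tested miRNAs the deviations of same-numbered arrays correlated with r between -0.26 and 0.28. Of 8 arrays, 2 correlated best with their own number. Correlations of 4 pairs cannot decide whether the numbers pair the samples. For miR-9 itself the same-numbered differences were 0.03, -0.16, -0.15 and 0.13, and for miR-9* -0.26, -0.26, -0.20 and 0.12. Signal over background limits the dimmer miR-9 probe.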

Other observations

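Besides the arms of miR-9, miR-34a, miR-193b, miR-674* and miR-29a, 3 other miRNAs were higher on all 4 arrays in columns 3 and 4 of the slide than on all 4 in columns 1 and 2. These were miR-29b (shift of 0.43 on the log2 scale), miR-148a (0.32) and miR-146b (0.23). miR-503 was lower there (-0.65). They were chosen after their values had been seen, and none was called different with CpG.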
